A study of Rattus norvegicus with 8 samples.

Results

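Macrophages and other leukocytes live in the ovary beside the follicles, and their presence in a tissue RNA sample is read from genes that leukocytes express and follicle cells largely do not. The markers described here are 10 such genes: the pan-leukocyte genes Ptprc and Laptm5, the macrophage genes Aif1, Cd68 and Csf1r, the signalling adapters Tyrobp and Fcer1g, and the recognition receptors Cd14, Cd163 and Mrc1. They were taken by gene name from the non-control probes of the array, which gave 14 of its 30367 probes; the scaled probes carry 26204 gene names in all. All 10 genes and all 14 probes passed the filter on dim signals and were among the 25303 probes tested. Of the 10 genes, 4 were higher in arrays labelled PMSG (Ptprc, Aif1, Laptm5 and Cd68), 0 were lower and 6 did not pass the test.

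The study measured ovary RNA of immature female rats on 1-colour Agilent arrays, 1 array per sample. The control group had 4 arrays, from rats given 0.2 ml of albumin phosphate buffer alone under the skin at 26 days of age. The other group had 4 arrays, from rats given 50 IU of pregnant mare serum gonadotropin (PMSG) in the same volume of that buffer. PMSG acts on the ovary mainly like follicle-stimulating hormone and makes follicles grow. Both groups were sampled after 48 h, when the rats were 28 days old, and no strain or genotype is named in the labels. The labels number the replicates without saying whether each is a single animal, so the p-values measure the spread between these arrays.

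In a tissue sample, a lower or higher marker signal can come from fewer or more cells of a type or from less or more RNA per cell, which cannot be told apart. Ptprc encodes CD45, a membrane phosphatase found on nearly all leukocytes, and Laptm5 encodes a lysosomal membrane protein of blood cells. Macrophages need the receptor Csf1r, whose ligands are Csf1 and Il34, to survive and mature. Tyrobp and Fcer1g have almost no outer part of their own. They sit beside receptors such as Trem2 and the antibody receptors and pass their signal to the kinase Syk. Cd14 helps Tlr4 and its partner Ly96 to sense bacterial lipopolysaccharide. Cd163 takes up hemoglobin bound to haptoglobin, and Mrc1 is the mannose receptor; both are used as markers of resident, scavenging macrophages. Ovarian macrophages are known for clearing atretic follicles and regressing corpora lutea.

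PU.1, encoded by Spi1, is the transcription factor known for switching on many myeloid genes, and it binds purine-rich DNA whose core is commonly written GAGGAA. The 250 bases before the RefSeq gene start (build GRCr8) were searched for GAGGAA on both strands, where the other strand reads TTCCTC. At least 1 match was found in 6 of the 7 markers with a promoter entry, against 23.3% of 33469 promoters of the same length. Tyrobp, Fcer1g and Aif1 were not analysed here. The longer form GAGGAAGT, which contains GAGGAA, was found in 0 of these 7 and in 2.04% of all promoters, and the TATA-box letters TATAAA in 1 of 7 (Laptm5) and in 12.9%. A match is only a description of the letters. The promoters of 3 markers that were higher are shown with that of Cd163, the marker without a match, and capitals mark each GAGGAA or TTCCTC. The match begins 163 bases before the start in Ptprc (chr13:52259747-52259996, minus strand), 27 in Cd68 (chr10:54882442-54882691, minus strand) and 63 in Laptm5 (chr5:148371630-148371879, plus strand). The Cd163 window is chr4:158770524-158770773, plus strand.
Ptprc: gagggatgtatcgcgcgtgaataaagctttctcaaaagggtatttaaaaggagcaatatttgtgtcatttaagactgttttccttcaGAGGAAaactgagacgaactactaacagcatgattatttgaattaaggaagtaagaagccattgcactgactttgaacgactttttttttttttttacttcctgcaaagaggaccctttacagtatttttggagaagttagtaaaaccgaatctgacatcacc
Cd68: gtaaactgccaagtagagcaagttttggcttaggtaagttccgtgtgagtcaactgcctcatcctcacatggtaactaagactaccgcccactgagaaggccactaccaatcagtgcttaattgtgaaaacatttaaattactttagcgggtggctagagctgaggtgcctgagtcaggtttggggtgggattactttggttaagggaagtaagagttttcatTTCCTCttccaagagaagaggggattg
Laptm5: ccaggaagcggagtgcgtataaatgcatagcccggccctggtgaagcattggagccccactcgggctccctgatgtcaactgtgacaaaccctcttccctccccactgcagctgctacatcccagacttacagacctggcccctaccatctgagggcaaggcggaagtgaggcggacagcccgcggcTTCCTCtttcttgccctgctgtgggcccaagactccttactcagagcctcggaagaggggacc
Cd163: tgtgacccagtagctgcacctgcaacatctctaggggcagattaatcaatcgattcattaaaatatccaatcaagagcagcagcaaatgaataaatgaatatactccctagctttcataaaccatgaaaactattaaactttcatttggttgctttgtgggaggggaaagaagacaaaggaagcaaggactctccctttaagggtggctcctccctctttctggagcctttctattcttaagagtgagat

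Each value below comes from a probe of 60 bases, and none of the 14 probe sequences recurred under another probe name. The probes of Cd163 and Mrc1 are shown because these genes have no second probe to check them, and the second probes of Aif1 and Fcer1g because their differences were close to those of the first. In the build rn4 of the array files, the Cd163 probe lies on chromosome 4 from 160423704 to 160423763. That of Mrc1 runs on chromosome 17 from 88489156 to 88491763, a span of 2608 bases for a 60-base probe, so it crosses at least 1 intron. The second Aif1 probe lies on chromosome 20 from 3716146 to 3716205, and the second Fcer1g probe on chromosome 13 from 87119755 to 87119814. Gene models of rn4 were not used here, so exons and untranslated regions are not named.
Cd163: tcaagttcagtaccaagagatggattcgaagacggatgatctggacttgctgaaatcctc
Mrc1: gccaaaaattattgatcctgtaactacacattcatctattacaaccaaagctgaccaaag
Aif1: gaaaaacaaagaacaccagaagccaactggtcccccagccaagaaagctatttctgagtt
Fcer1g: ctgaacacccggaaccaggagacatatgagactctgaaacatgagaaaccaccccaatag

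Values are log2 processed signals minus the 75th percentile of each array, so 0 is the 75th percentile itself, and values carry no unit. Differences are PMSG-labelled minus control-labelled means of these log2 values, tested with limma across all 25303 probes, and a probe was called at a Benjamini-Hochberg adjusted p under 0.05. Over all probes 34.2% were called, 17.6% as higher and 16.6% as lower in arrays labelled PMSG, and the median log2 difference was 0.11. Of all calls 51.4% were higher, but 34.5% with arrays centred on their median. The 75th percentile lay between 1002 and 1103 in arrays labelled control and between 769 and 1082 in those labelled PMSG. The lowest, 769, was that of PMSG array 3, and PMSG array 4 had the lowest weight, 0.279, when limma weighted arrays by their deviations. Groups follow the sample titles. Genes known to rise with gonadotropin ran the other way: Star fell by 2.75, Cyp11a1 fell by 3.36 and Lhcgr fell by 1.93 on the log2 scale. Amh, which is not counted among those genes, rose by 3.03 (limma adjusted p from 2.32e-04 to 0.00541 over all of them and Amh). Every direction is therefore that of the arrays as labelled. Whether the labels are exchanged was not tested, and an exchange would turn every higher and lower given here. Without PMSG arrays 3 and 4 together, the count of called markers was again 4, all higher.

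Among the pan-leukocyte markers, Ptprc was measured best by a probe with 10 spots on chromosome 13 from 51246523 to 51246582. Control arrays 1 to 4 read -1.95, -2.01, -1.59 and -1.84, and PMSG arrays 1 to 4 read -1.15, -0.97, -1.16 and -1.36; this order of replicates is kept throughout. All 4 PMSG-labelled arrays lay above all control-labelled ones, with control array 3 nearest to them. The mean rose from -1.85 ± 0.18 to -1.16 ± 0.16 (SD, n = 4 each). The log2 difference was 0.69 (standard error 0.13, limma adjusted p = 0.00447) or 1.61-fold, with a 95% interval from 1.31- to 1.98-fold. A second Ptprc probe was far dimmer, well above background on 3 of 4 control-labelled and 4 of 4 PMSG-labelled arrays, and its difference of 0.61 (standard error 0.41, limma adjusted p = 0.273) was not called. Averaging both probes ended the Ptprc call (0.65, limma adjusted p = 0.0692).

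Laptm5 had the narrowest spread of the markers in arrays labelled PMSG. Its values were 1.67, 1.77, 2.05 and 1.72 on the control-labelled arrays and 2.42, 2.42, 2.52 and 2.43 on the PMSG-labelled ones. The groups did not overlap, and again control array 3 was the highest control. The log2 difference was 0.64 (standard error 0.11, limma adjusted p = 0.00248), or 1.56-fold with a 95% interval from 1.32- to 1.85-fold.

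Of the macrophage markers, Aif1, which encodes the calcium-binding protein IBA1, had 2 probes that lie close together on chromosome 20 and both rose. The brighter one (3716264 to 3716323) read 1.38, 1.33, 1.56 and 1.62 on the control-labelled and 2.05, 1.93, 2.31 and 2.33 on the PMSG-labelled arrays. Every PMSG-labelled array lay above every control-labelled one, by at least 0.31. The log2 difference was 0.68 (standard error 0.13, limma adjusted p = 0.00444), or 1.60-fold. The other probe, printed above, gave 0.58 (standard error 0.16, limma adjusted p = 0.0261), and its groups also did not overlap.

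Cd68, which encodes a glycoprotein of macrophage lysosomes, passed the test narrowly. Control-labelled arrays read -0.59, -0.74, -0.071 and -0.51, and PMSG-labelled arrays 0.21, 0.11, -0.050 and -0.14. Control array 3 lay above PMSG array 4, so the groups overlapped. The log2 difference of 0.51 (standard error 0.16, limma adjusted p = 0.0398) corresponds to 1.42-fold, and its 95% interval on the log2 scale ran from 0.14 to 0.87. This call was lost without control array 1, 2 or 4 or PMSG array 1, 2 or 3 (limma adjusted p from 0.0611 to 0.104) with median centring (0.125), without the filter on dim probes (0.0525) and with replicate number as a block (0.0835).

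Csf1r did not pass the test. Its brighter probe, which spans 702 bases on chromosome 18 (57105231 to 57105932) and so crosses an intron, read -1.92, -1.76, -1.48 and -1.49 on the control-labelled arrays. The PMSG-labelled arrays read -1.56, -1.47, -1.21 and -1.23, and 3 of them lay above all controls. The log2 difference was 0.29 (standard error 0.14, limma adjusted p = 0.143), with a 95% interval from -0.033 to 0.62. A second Csf1r probe differed by 0.072 (standard error 0.46, limma adjusted p = 0.913), with control array 1 far above the other controls.

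**Figure D1:**
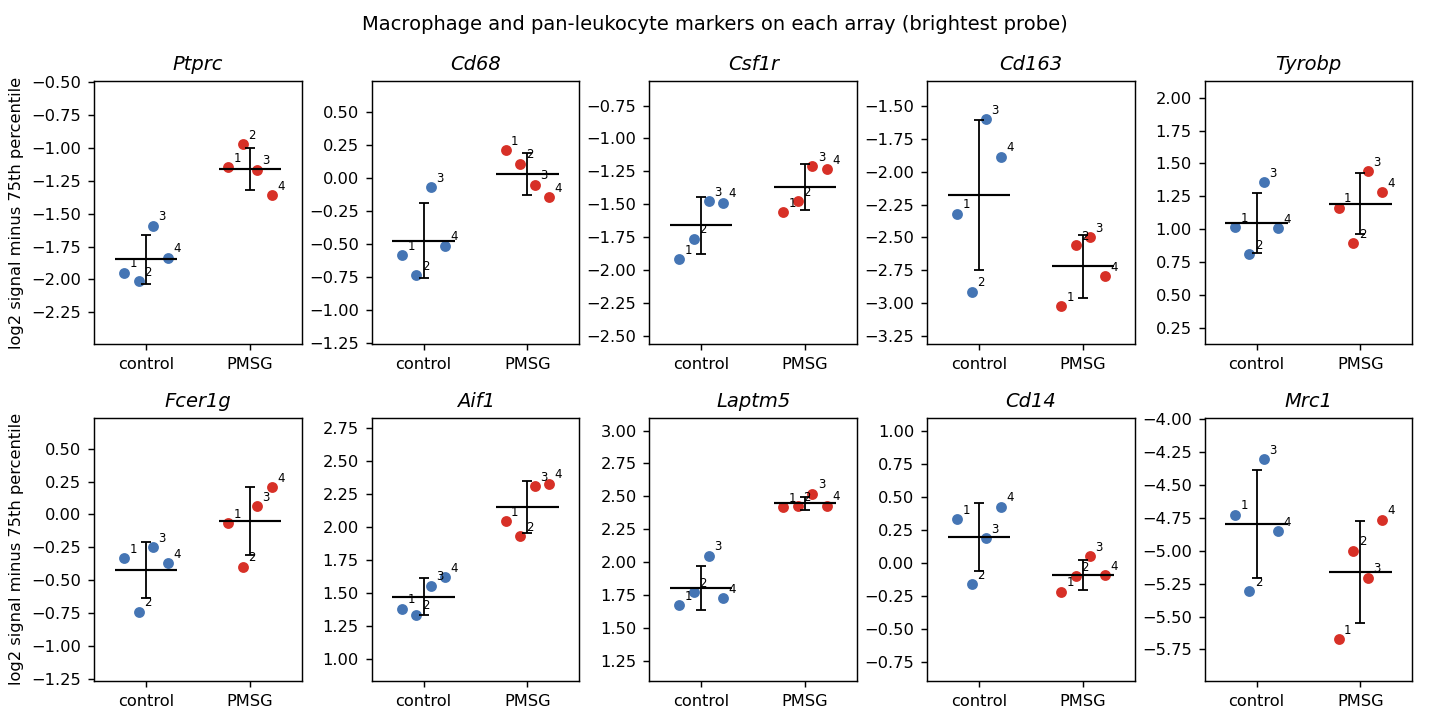
Log2 signal minus the 75th percentile (vertical axis, the same range in each panel) of the brightest probe of each of the 10 markers on the 4 control-labelled (blue) and 4 PMSG-labelled (red) arrays; small numbers are the replicates, bars the mean and error bars the SD. Ptprc, Aif1 and Laptm5 separate without overlap, whereas Cd163, Cd14 and Mrc1 have lower means in arrays labelled PMSG with overlapping values.

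The adapters Tyrobp and Fcer1g were not called either. Tyrobp stood at 1.02, 0.81, 1.36 and 1.01 on the control-labelled arrays against 1.16, 0.89, 1.44 and 1.28 in those labelled PMSG. The ranges overlapped, and the log2 difference was 0.15 (standard error 0.16, limma adjusted p = 0.487), close to the median of all probes. Its sign turned with median centring (-0.021) and without PMSG arrays 3 and 4 together (-0.019).

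Fcer1g had 2 probes on chromosome 13 that gave like values. The brighter (87119567 to 87119626) read -0.33, -0.74, -0.25 and -0.37 on the control-labelled and -0.068, -0.40, 0.063 and 0.21 on the PMSG-labelled arrays. PMSG array 2 lay within the controls and the other 3 above them. Log2 differences were 0.37 (standard error 0.16, limma adjusted p = 0.110) for this probe and 0.40 (standard error 0.16, limma adjusted p = 0.0890) for the one printed above. Without PMSG array 2 the brighter probe was called (0.49, limma adjusted p = 0.0452).

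The recognition receptors had negative differences, none of them called. Cd163 read -2.32, -2.91, -1.60 and -1.89 on the control-labelled arrays and -3.02, -2.56, -2.50 and -2.79 on the PMSG-labelled ones. Control array 2 fell among the PMSG-labelled values and the other 3 controls lay above them. The log2 difference was -0.54 (standard error 0.28, limma adjusted p = 0.164), with a 95% interval from -1.17 to 0.096, and without control array 2 it was called (-0.78, limma adjusted p = 0.0317).

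Cd14 read 0.33, -0.16, 0.19 and 0.43 on the control-labelled arrays and -0.22, -0.10, 0.052 and -0.094 on those labelled PMSG, again with only control array 2 among the latter. Its probe lies on chromosome 18 from 29374990 to 29375049. The log2 difference of -0.29 (standard error 0.14, limma adjusted p = 0.152) was called without control array 2, at -0.41 (limma adjusted p = 0.0422).

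Mrc1 was the dimmest of the brightest probes, with a median unscaled signal of 35.0, and the most variable between arrays labelled PMSG. It read -4.73, -5.31, -4.31 and -4.85 on the control-labelled and -5.67, -5.00, -5.20 and -4.77 on the PMSG-labelled arrays, and the ranges overlapped. The log2 difference was -0.36 (standard error 0.25, limma adjusted p = 0.291).

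**Figure D2:**
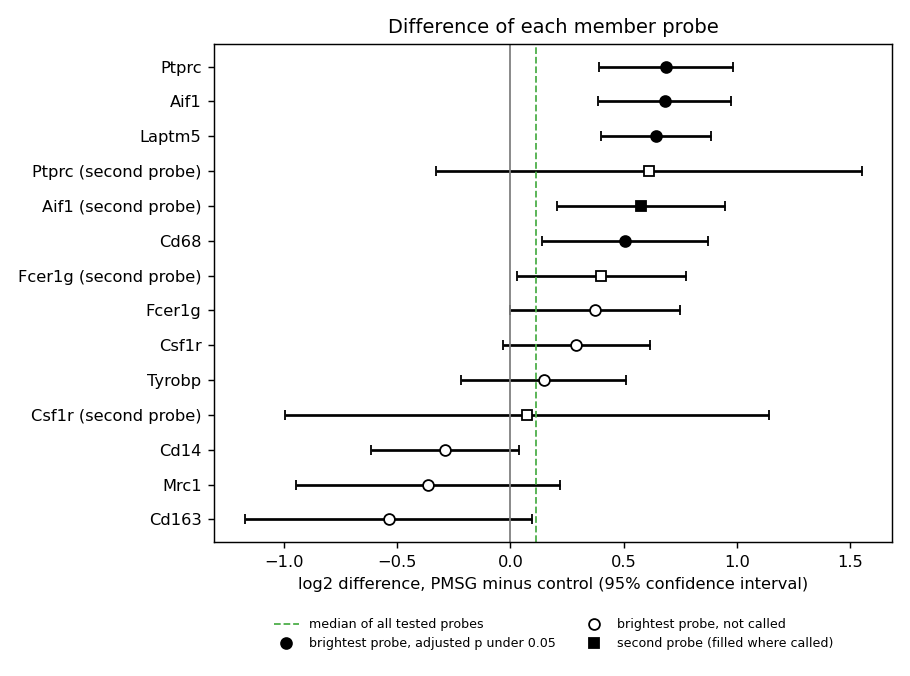
Log2 difference of each of the 14 marker probes (points, with 95% confidence intervals from limma) between arrays labelled PMSG and control; circles are the brightest probe of a gene, squares its second probe, filled symbols have an adjusted p under 0.05, and the dashed line is the median of all tested probes, 0.11. The differences run from -0.54 for Cd163 to 0.69 for Ptprc, and the 5 filled probes belong to Ptprc, Aif1, Laptm5 and Cd68.

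Over the 10 genes the median log2 difference was 0.33, 7 differences were above 0, and none reached 2-fold. With median centring the median was 0.165 and without PMSG arrays 3 and 4 together 0.167, with 6 differences above 0 in both. The 4 genes called as higher stand beside 17.6% of all probes called as higher. The groups did not overlap for 3 of the 10 genes, where 36.6% of all probes had no overlap. All 3 were higher, and probes that were higher without overlap made up 17.9% of all tested. With array position on the slide, which had 2 rows with 2 arrays of each label in each, Ptprc differed by 0.86 within row 1 and by 0.52 within row 2, Laptm5 by 0.72 and 0.56, and Aif1 by 0.64 and 0.72. Cd163 differed by -0.13 and -0.95 and Mrc1 by -0.023 and -0.70 within these rows.

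Among the controls, array 3 was the highest control for 8 of the 10 genes and array 2 the lowest for 8 of the 10. The mean log2 level of these arrays over the 10 genes was -0.42 and -0.97, with -0.74 and -0.62 on control arrays 1 and 4. The PMSG-labelled arrays had no such order: arrays 1 to 4 were highest for 1, 1, 5 and 3 genes and lowest for 5, 3, 0 and 2. Their means ran from -0.59 to -0.37 and so included the value of control array 3. The summed signal of the 10 genes, in multiples of the 75th percentile, ran from 10.5 to 13.6 in arrays labelled control and from 14.9 to 17.6 in those labelled PMSG. This sum is carried by the brightest probes, Laptm5, Aif1 and Tyrobp. Markers of fat cells set the same control arrays apart: Adipoq read 2.88, 1.82, 4.16 and 2.75 in controls, and 3.49, 3.94, 4.19 and 2.98 on the PMSG-labelled ones. Of 6 adipocyte genes, 1 was higher and 0 lower in arrays labelled PMSG, and their summed signal ran from 5.97 to 42.2 in arrays labelled control and from 18.5 to 48.3 in those labelled PMSG. The part of fat tissue in the marker values was not tested.

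To compare the markers with each other without the scaling of the arrays, each probe was also set against the brightest Ptprc probe on the same array. This ratio was added after the values had been seen, and since Ptprc itself rose it shifted all probes, with a median log2 difference of -0.57. Of the other 9 markers, 4 were lower relative to Ptprc and 0 were higher, where 55.9% of 25302 probes were called, 51.8% as lower and 4.12% as higher. Ptprc had the largest log2 difference of the markers, so the ratio differences of the other 9 had to be negative. The count of 0 higher was therefore fixed by the choice of Ptprc. Cd163 relative to Ptprc stood at -0.37, -0.90, -0.0078 and -0.052 in the controls, against -1.88, -1.59, -1.33 and -1.43 in arrays labelled PMSG, a difference of -1.22 (standard error 0.23, limma adjusted p = 0.00121). The ratio of Mrc1 differed by -1.05 (standard error 0.24, limma adjusted p = 0.00420) and that of Cd14 by -0.97 (standard error 0.19, limma adjusted p = 0.00159). The groups did not overlap for these 3 ratios, and each was called whichever array was left out. The share of all probes for which the same holds relative to Ptprc is not given here. Neither trait can therefore be called particular to these markers. With Laptm5 in place of Ptprc the differences of Cd163, Mrc1 and Cd14 were -1.18, -1.01 and -0.93, and with Aif1 they were -1.22, -1.05 and -0.97. Laptm5 and Aif1 rose about as much as Ptprc, so like values had to follow and are no separate check. Of all probes, 51.19% were called lower relative to Laptm5 and 48.55% relative to Aif1.

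Tyrobp relative to Ptprc was lower by a log2 difference of -0.54 (standard error 0.20, limma adjusted p = 0.0379), near the median of all probes. This call was lost without any 1 of control arrays 1 to 4 or of PMSG arrays 1 and 2 (limma adjusted p from 0.0630 to 0.0992), with quantile normalization (0.0618) and with the replicate block (0.0738). Aif1 and Laptm5 relative to Ptprc differed by -0.0052 and -0.044, with 95% intervals from -0.44 to 0.43 and from -0.40 to 0.31. The sign of both turned with quantile normalization (0.10 and 0.065). Differences for Cd68, Fcer1g and Csf1r were -0.18, -0.31 and -0.40 and were not called, apart from Csf1r without PMSG array 4 (-0.51, limma adjusted p = 0.0394).

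**Figure D3:**
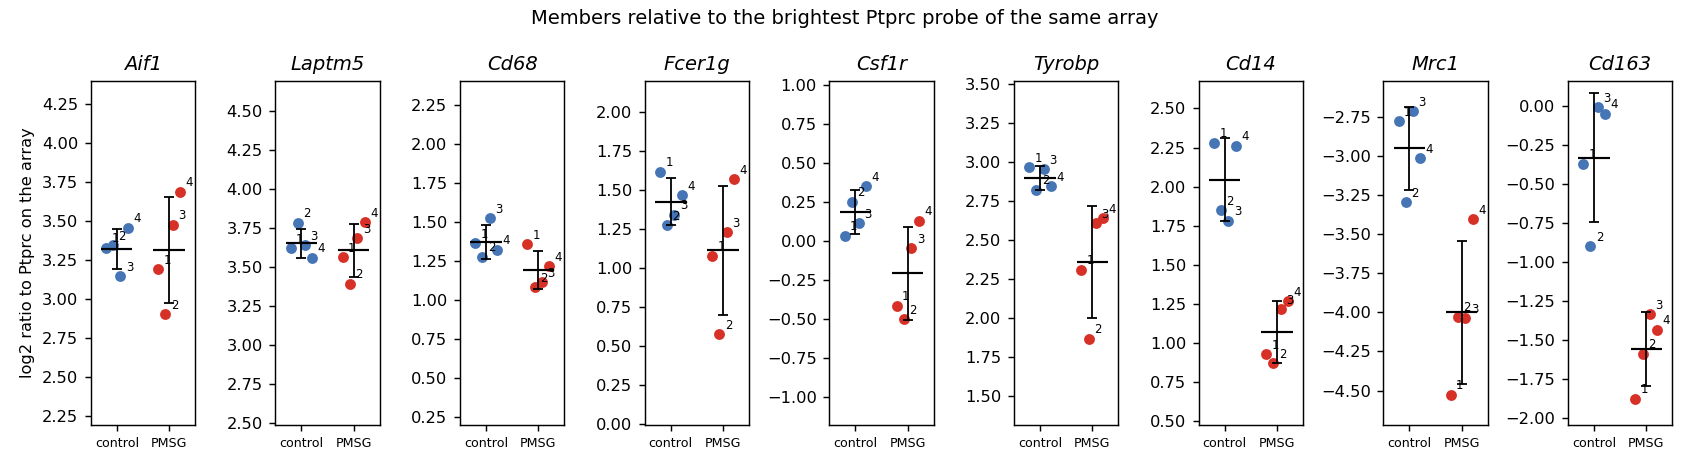
Log2 ratio of 9 markers to the brightest Ptprc probe of the same array (vertical axis, the same range in each panel), for 4 control-labelled (blue) and 4 PMSG-labelled (red) arrays, with the mean and SD as bars and replicates as numbers. Ratios of Cd163, Mrc1, Cd14 and Tyrobp in arrays labelled PMSG lie below every control, while those of Aif1 and Laptm5 overlap. Of all probes, 51.8% were called lower in this ratio, and the share without overlap is not given here.

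Of 15 further pan-leukocyte genes tested, 2 were higher, 0 lower and 13 not called, with a median log2 difference of 0.14, which was -0.027 with median centring, 0.060 without PMSG array 3 and 0.23 without PMSG array 1. The genes called were Cd53, a membrane tetraspanin, which rose from -1.03 ± 0.14 to -0.23 ± 0.10 (SD, n = 4 each), a log2 difference of 0.80 (standard error 0.11, limma adjusted p = 9.21e-04), and the lymphoid transcription factor Ikzf1 at 0.95 (standard error 0.29, limma adjusted p = 0.0334), a call lost under 8 of 19 alternatives. Cd52 had the difference with the largest size, -1.04, and was not called (limma adjusted p = 0.106). Of 20 further macrophage genes, 3 were higher, 0 lower and 17 not called, with a median of 0.21, which was 0.082 without control array 2 (1 gene higher), 0.13 without PMSG array 3, 0.32 without control array 3 and 0.038 with median centring. Ms4a7 rose by 1.19 (standard error 0.15), the chemokine receptor Cx3cr1 by 1.12 (standard error 0.30) and the complement component C1qa by 0.62 (standard error 0.20; limma adjusted p = 6.66e-04, 0.0204 and 0.0434). The C1qa call was lost under 10 of 19 alternatives. C1qb and C1qc, whose products form one protein with that of C1qa, had differences of 0.14 and 0.10 that were not called and changed sign under 3 alternatives. Emr1, which encodes the macrophage antigen F4/80, had a difference of 0.73 (standard error 0.25, limma adjusted p = 0.0536). Spi1 differed by 0.088 (limma adjusted p = 0.674), with a sign that changed under 3 of 19 alternatives, at a level of -5.34 ± 0.096 (SD, n = 4) in arrays labelled control.

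Among the receptors and enzymes that work with Tyrobp and Fcer1g, Trem2 rose in all arrays labelled PMSG. It read -0.67, -0.86, -0.41 and -0.47 on the control-labelled arrays and 0.57, 0.63, 0.95 and 0.74 on the PMSG-labelled ones. The groups lay far apart, with a log2 difference of 1.32 (standard error 0.14, limma adjusted p = 3.30e-04). Trem2 is a lipid-sensing receptor of macrophages that signals through Tyrobp. Of the 14 genes tested in this group, 3 were higher and 0 lower, with a median of 0.32. It was 0.19 without PMSG array 3, 0.205 without control array 2 (1 gene higher), 0.10 without PMSG arrays 3 and 4 together and 0.072 with quantile normalization, and with median centring (0.15) 1 gene was higher and 1 lower. The antibody receptor gene Fcgr2a rose by 0.44 (standard error 0.11, limma adjusted p = 0.0173), and Fcer1a, the IgE-binding chain that pairs with Fcer1g, by 0.63 (standard error 0.20, limma adjusted p = 0.0450), a call lost under 13 of 19 alternatives. Syk differed by 0.41 (standard error 0.23, limma adjusted p = 0.193).

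Genes around Csf1r that were called were all lower. Csf1, the ligand, fell from 0.063 ± 0.049 to -0.76 ± 0.24 (SD, n = 4 each), a log2 difference of -0.82 (standard error 0.13, limma adjusted p = 0.00204), without overlap between the groups. Il34, the other ligand, differed by 0.32 (standard error 0.16, limma adjusted p = 0.160). Of 9 genes tested, 0 were higher and 4 lower, with a median of 0.11. This median was -0.30 without control array 3, -0.039 without PMSG array 1, -0.16 over the genes well above background on all 8 arrays, -0.057 with median centring and -0.044 with quantile normalization, and 2 to 4 genes were lower under the alternatives. Besides Csf1 these were Grb2 (-0.71), Pik3cd (-0.51, a call lost under 11 of 19 alternatives) and Cbl (-0.44), which act downstream of many receptors in many cell types.

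Around Cd14, 2 of the 9 genes that cleared background on each of the 8 arrays were higher and 4 lower, with a median of -0.18. With Ticam2, the median of 10 genes was -0.049 and ran from -0.22 with median centring to 0.088 without PMSG arrays 3 and 4 together. Ly96, whose product binds lipopolysaccharide with Tlr4, read -1.09, -1.32, -1.04 and -1.02 on the control-labelled and -2.34, -2.28, -2.15 and -1.81 on the PMSG-labelled arrays. It fell by 1.03 (standard error 0.14, limma adjusted p = 0.00103), and the adapter and kinase genes Irak4, Irak1 and Myd88 had differences of -0.81, -0.61 and -0.58. Tlr4 differed by 0.17 (standard error 0.094, limma adjusted p = 0.198). Ticam2 read -7.03 ± 0.84 and -5.53 ± 0.52 in the control and PMSG groups (SD, n = 4 each), with no test given, since it was well above background on 1 control-labelled array and passed the filter through the PMSG-labelled ones. Tlr2 and Lbp were higher by 0.53 and 0.45. Under the alternatives 0 to 3 of the 10 genes were higher and 3 to 5 lower, with Ticam2 counted among the 10.

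The genes that share tasks with Cd163 and Mrc1 included some of the largest decreases. Hp, encoding the haptoglobin whose hemoglobin complex Cd163 takes up, fell from 2.94 ± 0.16 to -1.03 ± 0.26 (SD, n = 4 each), a log2 difference of -3.96 (standard error 0.15, limma adjusted p = 1.16e-05). Hmox1, the enzyme that breaks down heme inside macrophages and other cells, fell by 1.04 (standard error 0.18, limma adjusted p = 0.00325), and Hpx, the heme carrier, fell by 4.42. Of 10 genes tested, 1 was higher and 5 lower, with a median of -0.37 that ran from -0.77 over the genes well above background on all 8 arrays to -0.15 after normexp, and was -0.24 without PMSG array 3. The uptake receptor Scarb1, also a gene of steroid-producing cells, fell by 1.83. Which cells made these transcripts was not tested.

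Markers of other leukocytes were set beside those of macrophages, since Ptprc and Laptm5 are not particular to macrophages and Fcer1g is also expressed in mast cells. All 7 mast cell genes tested were higher, with a median of 0.85. Cma1, a mast cell chymase, read -2.57, -2.91, -1.85 and -2.57 on the control-labelled and -1.48, -1.11, -0.77 and -1.13 on the PMSG-labelled arrays, a log2 difference of 1.35 (standard error 0.24, limma adjusted p = 0.00353). Hdc, which makes histamine, rose by 1.37 and the tryptase gene Tpsab1 by 1.24. The summed signal of the 7 genes, in multiples of the 75th percentile, ran from 0.506 to 0.827 in arrays labelled control and from 1.27 to 1.72 in those labelled PMSG. Under the alternatives 6 or 7 of the 7 were higher, with a median of 0.53 after normexp. Fcer1a is counted in this list and in the one on Fcer1g partners.

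T cell genes were higher too. Of the 8 that cleared background on each of the 8 arrays, 7 were higher and 0 lower, with a median of 1.18. With Cd3e, the median of 9 genes was 1.19. Under the alternatives 5 to 8 of these genes were higher, with a median of 0.67 after normexp. Cd247, a signalling chain of the T cell receptor, rose by 1.47 (standard error 0.29) and Cd3g, another of its chains, by 1.46 (standard error 0.36; limma adjusted p = 0.00577 and 0.0161). The defining marker Cd3e was well above background on 1 control-labelled and 3 PMSG-labelled arrays. It passed the filter mainly through the latter, so its difference of 1.19 is given with no test. Cd2 and Cd28 were well above background on 0 of 8 arrays. Summed signals of the list ran from 0.836 to 1.18 in arrays labelled control and from 1.47 to 2.92 in those labelled PMSG.

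Of the 5 natural killer and cytotoxic cell genes that cleared background on each of the 8 arrays, 2 were higher (Prf1 and Gzma) and 0 lower, with a median of 0.79. Klrd1 and Klrb1a were well above background on 0 control-labelled and 4 PMSG-labelled arrays, so they passed the filter only through the arrays where they are bright, and their difference is given with no test. Klrd1 was at least 1.95-fold and Klrb1a at least 1.27-fold brighter in arrays labelled PMSG. The bounds set each dim array at its lowest spot well above background, or at the probe's own value where that was higher. Prf1, encoding perforin, rose by 0.89 (standard error 0.26, limma adjusted p = 0.0325), a call lost under 8 of 19 alternatives. Of the B cell genes, Cd79a differed by -0.19 (limma adjusted p = 0.548) and Ms4a1 was well above background on 0 of 8 arrays. Dendritic cell genes had 1 of 6 higher, Clec9a at 1.51 (standard error 0.29, limma adjusted p = 0.00463). Neutrophil genes had 0 of 6 higher and 1 lower, S100a8 at -1.97 (standard error 0.56, limma adjusted p = 0.0278), a call lost under 4 of 19 alternatives. Summed signals in arrays labelled control and PMSG ran from 0.303 to 0.430 and from 0.343 to 0.621 for the cytotoxic genes, and from 0.319 to 1.13 and from 0.245 to 0.446 for the neutrophil genes. The part of lymphocytes and mast cells in the higher Ptprc and Laptm5 signal was not tested.

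**Figure D4:**
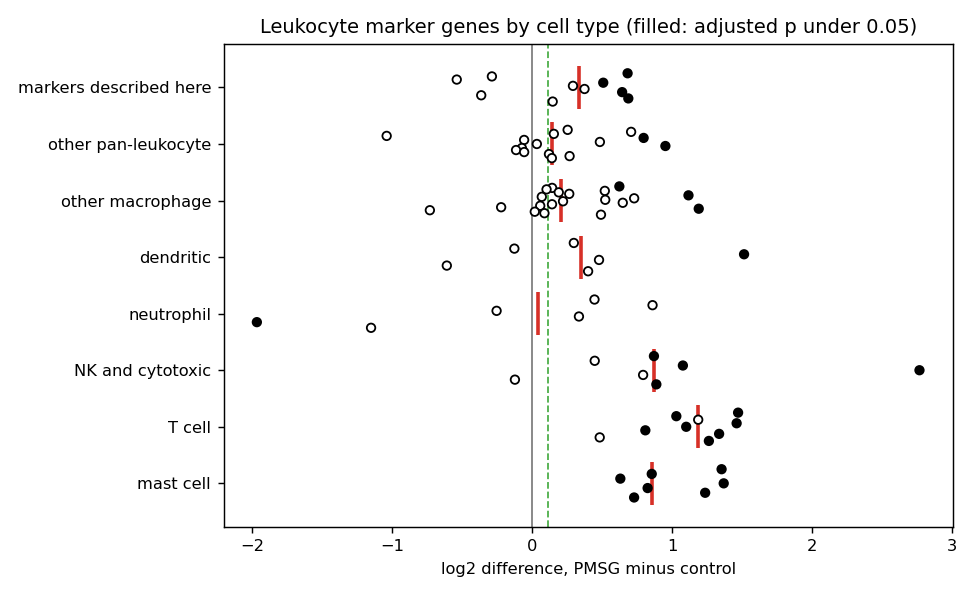
Log2 difference (horizontal axis, PMSG-labelled minus control-labelled arrays) of every tested gene, in 8 groups of leukocyte markers; filled points have a limma adjusted p under 0.05, red bars are group medians and the dashed line is the median of all probes. Mast cell and T cell genes lie to the right with medians of 0.85 and 1.19, the latter over 9 genes with Cd3e. The 10 markers have a median of 0.33. For the 2 cytotoxic genes not above background in controls the measured difference is plotted, not the bound. Their filled symbols carry no test.

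Other tissue parts moved with the labels as well and stand beside all of these counts. All 8 oocyte genes tested were higher, with a median of 1.95 and summed signals from 3.00 to 5.37 in arrays labelled control and from 10.4 to 22.5 in those labelled PMSG. Of 10 endothelial genes, 1 was higher and 5 lower (median -0.48). Of 8 granulosa cell genes, 1 was higher and 4 lower (median -0.48), and of 5 theca cell genes, 1 was higher and 3 lower (median -1.93). Markers of oocytes, endothelium, granulosa cells and theca cells thus passed the filter on dim signals. Of 4 red blood cell genes, 1 was lower, Alas2 at -1.38, and 0 were higher, with summed signals from 4.81 to 13.8 and from 2.13 to 3.58. The part of these shifts in the marker values was not tested.

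The 5 probes outside the markers whose pattern over the 8 arrays lay closest to the mean pattern of the 10 genes were those of Evi2a, Pex11a, Ptpn13, Rac2 and Il1rn. Closeness was the root mean square difference of log2 values after centring each probe over its 8 values. It was 0.063 for Evi2a and 0.079, 0.080, 0.080 and 0.089 for the others, against a median of 0.379 over all tested probes. Rac2, a leukocyte GTPase, and Il1rn, the interleukin 1 receptor antagonist, had log2 differences of 0.27 and 0.13 that were not called. Of the markers themselves, Tyrobp and Csf1r lay closest to the mean pattern, at 0.12 each, and Cd163 farthest, at 0.45.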

How the data were processed

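Per the file headers, Agilent Feature Extraction 11.5.1.1 turned each scan into intensity values, 1 file per array. The authors deposited processed, mean and background signals with flags. A second deposited table holds log2 values, which by comparison with the scanner files are log2 signals minus about the 75th percentile of each array; what made them is not given in the sources used here. Columns not used numbered 0. Control and outlier spots were left out, log2 processed signals of a probe's spots were averaged, and each array's 75th percentile over 30350 probes was subtracted (17 probes without a usable spot were dropped). Probes well above background on at least 4 of 8 arrays, in at least 0.5 of their usable spots, were tested: 25303. No spot was saturated. All arrays shared 1 slide and 1 scan day. Differences were tested by lmFit and eBayes of limma (version 3.58.1, R 4.3.3) without covariates, at a Benjamini-Hochberg adjusted p of 0.05; 4 arrays per group limit the precision. Of a gene with several probes, the one with the highest mean over the 8 arrays was used. On simulated data with 25303 probes, 66 were given a log2 difference of 1, 68 one of 0.5 and 66 one of 2. The procedure called 47.0% of those of 1 and 7.35% of those of 0.5. Far fewer probes were changed there than the 8658 called in the data, which makes the adjusted threshold stricter. These shares are therefore not the power for the data themselves.

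The markers and the gene lists were chosen with earlier results of these data known, so list counts are descriptions. Named genes are all markers, at most the 3 of each list with the largest difference, defined partners (Csf1, Il34, Trem2, Syk, Tlr4, Ly96, Spi1, Hp, Hmox1), the closest 5 probes and 4 genes that check the labels; C1qb, C1qc, Emr1, Fcgr2a, Scarb1, Tlr2, Lbp, Irak4, Irak1, Myd88, Cbl, Prf1, Gzma, Adipoq, Cd79a and markers at or near background were added after their values were seen. Some genes of the lists are not reported here. Emr1 and Adgre1 are 1 gene and were counted once. All 10 accessions of the markers had the same symbol in the RefSeq table of GRCr8. Alternatives covered background correction, scaling, the filter, deposited values, array weights, eBayes settings, blocks for replicate number and slide row, and each array left out; the ratio to Ptprc and the fit without PMSG arrays 3 and 4 were added later.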

Additional observations from a re-analysis of the deposited data

Results flagged for a closer look

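In each of 28 groups of 4 values, those of the 14 marker probes under either label, the gap of the highest or lowest array to its neighbour was set against the range of the group, and 3 groups had 1 array far from the others. Chance gives about 1 in 20 groups. Laptm5 was highest on PMSG array 3 (gap 0.903 of the range), at 2.52 against 2.42 to 2.43. The second Csf1r probe was highest on control array 1 (gap 0.885), at -1.43 against -3.19 to -2.99. The second, dim Ptprc probe was lowest on control array 1 (gap 0.880), at -8.06 against -6.36 to -6.13. Both of these second probes were not called, and the brighter probes of Csf1r and Ptprc had no such array.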

How the results depend on the processing

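The count of called markers, 4, was 3 to 5 over 20 alternatives, all of them higher except 2 called as lower (Cd163 and Cd14) without control array 2, and 3 to 5 when 1 array was left out. All probes called numbered 8658, with 6552 to 11382 when 1 array was left out. Of 200 values of single markers under the alternatives, 185 kept their direction and their side of the threshold, 10 lost the call (9 of Cd68 and 1 of Ptprc), 3 gained it (Cd163, Cd14 and Fcer1g) and 2 changed sign (Tyrobp, at -0.021 with median centring and -0.019 without PMSG arrays 3 and 4 together). Aif1 and Laptm5 kept their call under all 20. The replicate block gave 3 called markers (Cd68 at a limma adjusted p of 0.0835), 7346 probes over all and 65 instead of 70 other list genes. Deviations from the group means correlated between same-numbered arrays at 0.0444, 0.0361, 0.183 and -0.0192. The labels do not say whether same-numbered arrays are paired, and these values cannot decide it. Relative to Ptprc, Tyrobp lost its call under the block (0.0738), and Aif1 changed sign with normexp (0.096), quantile normalization (0.10) and without control array 2 (0.0036), control array 4 (0.041), PMSG array 1 (0.036) or PMSG array 2 (0.13), as did Laptm5 with quantile normalization (0.065) and without PMSG array 2 (0.027), none of them called; leaving out 1 array gave -0.13 to 0.13 for Aif1 and -0.10 to 0.027 for Laptm5. The share of called probes that were higher was 51.4%, but 46.2% with quantile normalization, 34.5% with median centring and 61.3% without PMSG array 4; median centring moved the median of all probes to -0.054. The cause of these changes was not tested.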
